A study of Saccharomyces cerevisiae and Saccharomyces mikatae and Saccharomyces paradoxus with 13 samples.

Results

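The response of Saccharomyces mikatae to alpha factor was measured in haploid a cells, the mating type that answers the peptide pheromone of alpha cells. S. mikatae is a wild relative of the budding yeast S. cerevisiae. Its data are 4 of the 13 arrays of the study, chosen by their titles, which give the species, the alpha factor treatment and a repeat number from 1 to 4. Each array carried RNA of S. mikatae a cells collected 60 min after 6 µM alpha factor was added and RNA of S. mikatae a cells without it. The cells were an a-type haploid made from the wild type IFO 1815, grown to log phase in rich medium (YPD). The comparison species were an a-type haploid of S. paradoxus made from CBS432 and the S. cerevisiae laboratory strain BY4741, which is known to lack HIS3, LEU2, MET17 and URA3. Both were treated in the same way on 3 arrays each, against untreated cells of their own species. The remaining 3 arrays hold S. cerevisiae matings and entered only the estimate of spread. Arrays of 1 species are biological replicates by the series design, and whether each carried its own untreated sample is not given in the sources used here.

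In S. cerevisiae, alpha factor binds the receptor Ste2, frees the G protein subunits Ste4 and Ste18 and starts a MAP kinase cascade that ends at Fus3 and Kss1. These kinases release the transcription factor Ste12 from its repressors Dig1 and Dig2, and Ste12 turns on genes for adhesion, cell fusion and nuclear fusion. Far1 arrests the cycle in G1, while Sst2, Bar1, Msg5 and Gpa1 damp the signal. The roles given below are those known from S. cerevisiae, since the arrays carried S. cerevisiae cDNA probes and the ORF names are those of that species.

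Values are log2 ratios of alpha factor over untreated cells, with 1 value for each ORF and array. Direction is likely rather than certain: the channel labels put the treated sample in Cy5 and the labelling protocol names Cy3 for it. The direction used here rests on the channel order and on mating genes, those of cell fusion among them, lying above 0. The sign of genes of the pheromone response is thus no separate result. With the sign turned, every rise below becomes a fall and every fall a rise. A ratio holds no level, so the mating type of the cells could not be checked from marker levels, and in bulk RNA a change in RNA per cell cannot be told apart from a change in the share of cells that hold it.

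Of 6132 ORFs in the table, 3972 had a value on all 4 S. mikatae arrays, 4367 on at least 2 and 1631 on none. No S. mikatae sequence was used, so how far probe mismatch lowers these values or removes ORFs was not measured. Array means were tested against 0 in limma for the 4367 ORFs with at least 2 values, and 2095 of them, 48%, passed a Benjamini-Hochberg adjusted p of 0.05. Of these, 1017 (23.3% of ORFs tested) were higher and 1078 (24.7%) were lower. Calls include small shifts: 138 ORFs (3.16%) were called and at least 2-fold from 0, 66 higher (1.51%) and 72 lower (1.65%). Against a 1.5-fold threshold 174 ORFs passed. The median over all ORFs tested was 0.00, the median SD over the arrays was 0.148, and the 5th and 95th percentiles of the means were −0.67 and 0.60. Below, "called" means past the test against 0. Counts of list members called higher or lower are to be read beside the 23.3% and 24.7% of all ORFs tested.

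Array 2 stood apart from the others. It correlated with them at 0.787 to 0.822 over ORFs, against 0.841 to 0.899 among arrays 1, 3 and 4, and 30 ORFs on it lay over 1 log2 unit above the mean of the other 3 arrays. Ratios also moved with the chromosome in the S. cerevisiae ORF name. Array medians were 0.09 to 0.20 for chromosome VIII and 0.11 to 0.16 for chromosome IX, against −0.25 to −0.14 for chromosome XVI and −0.25 to −0.08 for chromosome XII. On chromosome XVI 27 of 330 tested ORFs were called higher and 146 lower. All 9 arrays outside S. mikatae also had a median below 0 for chromosome XVI, from −0.19 to −0.07, so the shift was not particular to S. mikatae. Centring each chromosome on its own median, an alternative chosen after seeing the data, left 2014 calls, of which 1686 were also among the 2095, and all 138 of the calls of at least 2-fold stayed past the test. Of the 2095 calls, 409 ended under it. Its part in small shifts was not tested further. Calls that end under it are named below only for ORFs that the naming rule covers. Other small calls below were not followed 1 by 1 and may also end under it.

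**Figure D1:**
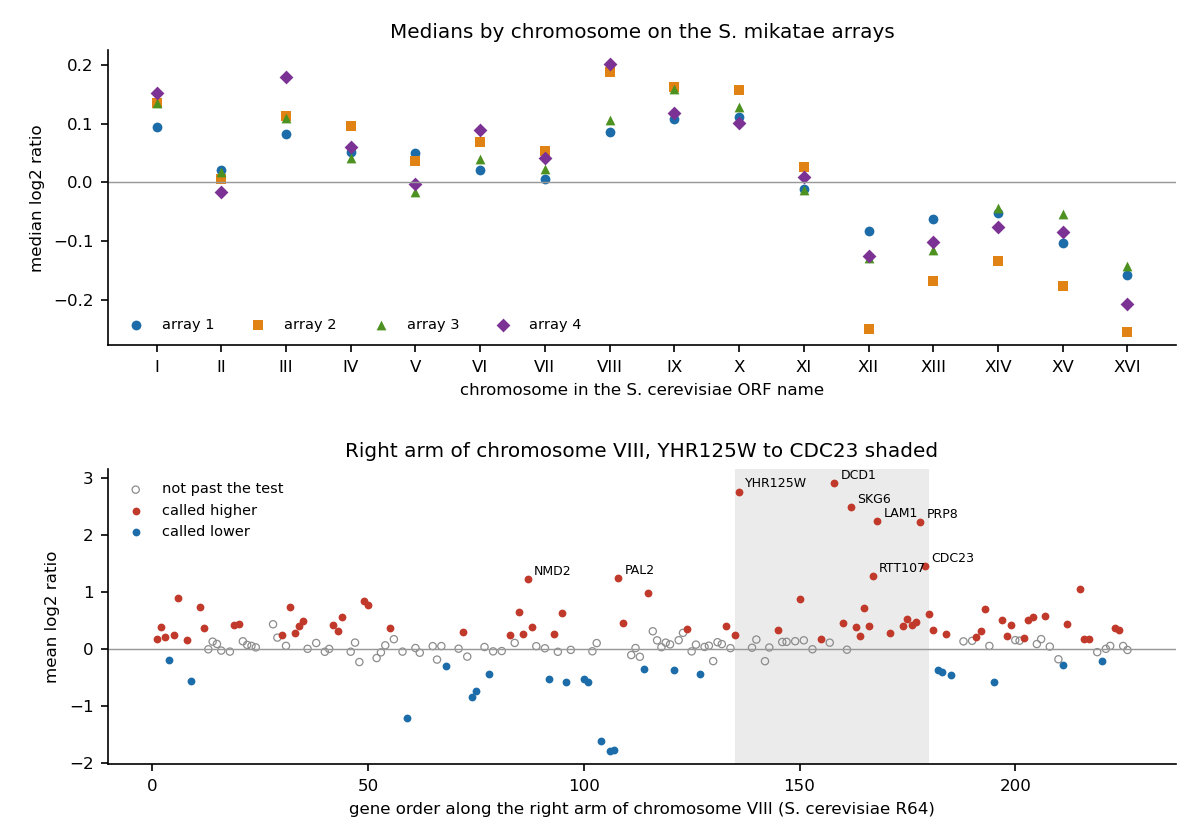
Top, the median log2 ratio (y axis, alpha factor over untreated) of the ORFs of each chromosome (x axis, by the letter in the S. cerevisiae ORF name) on each of the 4 S. mikatae arrays; chromosome XVI lies at −0.25 to −0.14 and chromosome IX at 0.11 to 0.16. Bottom, the mean log2 ratio of each measured ORF (y axis) in gene order along the right arm of chromosome VIII (x axis), filled where called; the shaded stretch from YHR125W to CDC23 holds 20 ORFs called higher and 0 called lower.

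Genes of the pheromone response headed the table. FIG1 (YBR040W), needed for calcium entry during mating, was at 4.46, 4.37, 4.98 and 4.69 on arrays 1 to 4, a mean of 4.62 with an SD of 0.271, or 24.6-fold (adjusted p = 4.38e-13). KAR4 (YCL055W), which works with Ste12 on nuclear fusion genes, was at 4.39, 4.23, 4.55 and 4.30, and ASG7 (YJL170C), an a-specific inhibitor of Ste4 signalling, at 4.04, 4.89, 4.63 and 3.91. Both averaged 20.6-fold. PCL2 (YDL127W), a cyclin partner of the kinase Pho85, was at 3.67, 2.46, 3.83 and 3.45. Its lowest value stood on array 2. AFR1 (YDR085C), which restrains receptor signalling and shapes the mating projection, was at 3.20, 2.83, 3.43 and 3.08, and PRM10 (YJL108C), a pheromone-regulated membrane protein, at 3.14, 2.78, 3.11 and 2.83 (7.82-fold). BAR1 (YIL015W), the protease that degrades alpha factor, was at 2.72, 2.89, 2.67 and 2.49 (6.46-fold, adjusted p = 2.37e-09). The unnamed ORF YDR124W was at 3.43, 4.22, 4.01 and 3.28. All 8 of these ORFs were above 2 on every array.

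The others among the 25 highest were of mixed function. From mating came PRM1, RVS161, FUS1 and STE2. SKG6, a membrane protein of growing sites, was at 2.27, 3.03, 2.45 and 2.16, the adenine phosphoribosyltransferase homologue APT2 at 2.15, 2.57, 2.29 and 2.33, and PDR12, the transporter that exports weak acids, at 2.09, 2.66, 2.49 and 2.04. LAM1, a sterol transfer protein, had 2.02, 2.63, 2.22 and 2.08, the core splicing factor PRP8 1.83, 2.79, 2.48 and 1.79, the tRNA modification gene KAE1 2.29, 2.02, 2.16 and 2.30, and TFA1, a subunit of the transcription factor TFIIE, 2.13, 2.63, 1.65 and 1.99. SKG6, APT2, PDR12, LAM1, PRP8 and TFA1 were each highest on array 2. DCD1, which makes dUMP for thymidylate synthesis, averaged 7.51-fold, with 2.54, 3.76, 2.77 and 2.57, array 2 again highest. YHR125W, an unnamed ORF, was at 2.54, 3.11, 2.81 and 2.56, also highest on array 2. UPC2, an activator of sterol uptake and synthesis genes, was at 2.40, 1.92, 2.27 and 1.65 (4.18-fold), and PEX34, a peroxisome protein next to KAR4, at 2.26, 1.40, 2.32 and 2.18. YBL101WA, the TYA gene of a Ty2 element, averaged 2.29 ± 0.0989 and YAR009C of Ty1 2.04 ± 0.257; probes of repeated elements read many near-identical copies, which these values cannot separate.

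**Figure D2:**
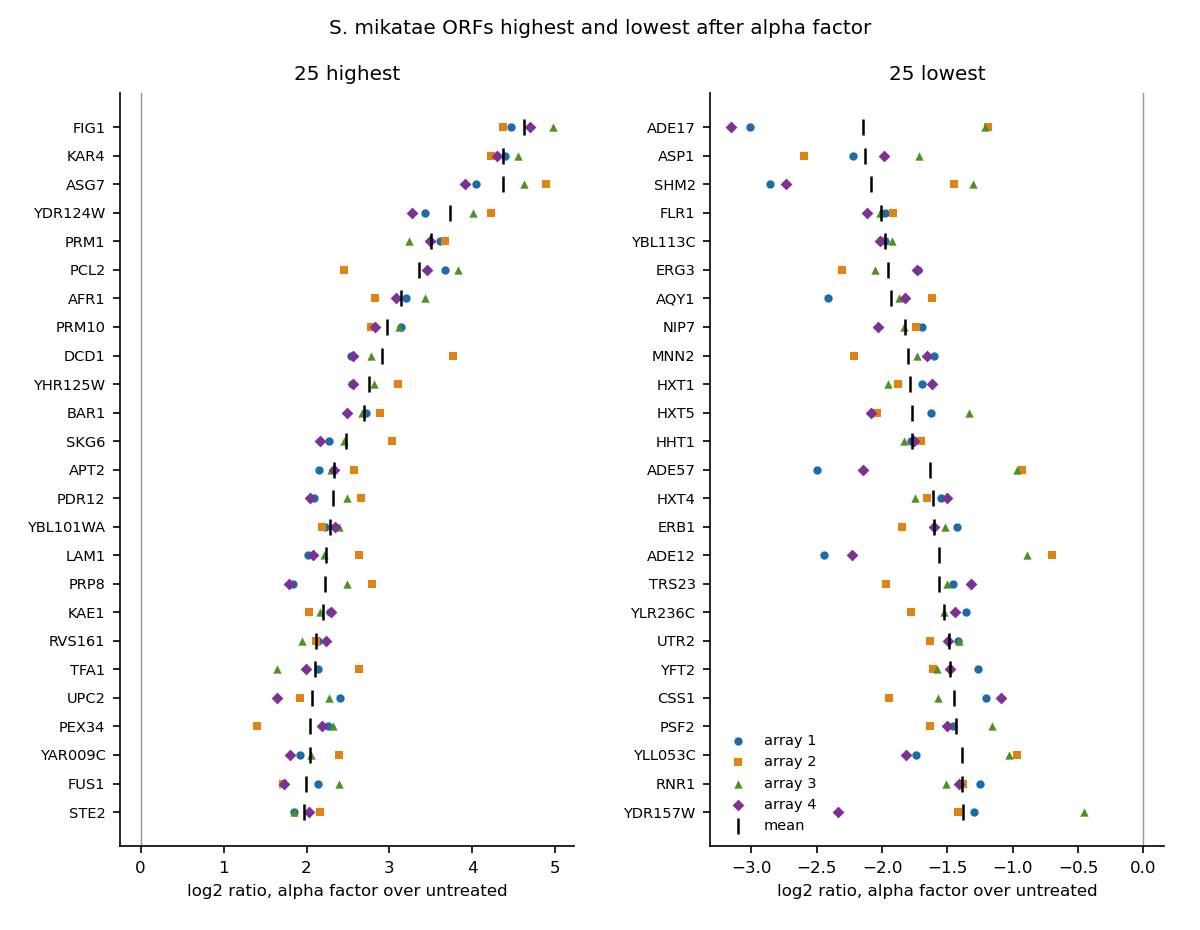
The 25 highest (left) and 25 lowest (right) called ORFs measured on all 4 S. mikatae arrays, one row per ORF. The x axis is the log2 ratio of alpha factor over untreated cells, coloured markers are the 4 arrays and black bars their means; FIG1 tops the left panel at 4.62, and arrays 1 and 4 lie far below arrays 2 and 3 for ADE17, SHM2, ADE57 (ADE5,7) and ADE12 on the right.

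In the signalling chain the receptor and the terminal kinases moved most. STE2, the alpha factor receptor, was at 1.85, 2.16, 1.84 and 2.02, a mean of 1.97 ± 0.153 (SD, n = 4; 3.91-fold, adjusted p = 1.62e-09). KSS1, which had no value on array 2, was at 1.52, 1.82 and 1.56 on the other 3 arrays (3.1-fold), and FUS3 at 1.11, 1.10, 1.27 and 1.30. GPA1, the G protein alpha subunit, had the closely placed values 0.85, 0.86, 0.87 and 0.98. The kinase adaptor STE50 was at 0.25 ± 0.0419. FAR1, the scaffold of cycle arrest and of polarised growth, was at 1.21, 0.48, 0.92 and 0.07, so it ran from near 0 on array 4 to over 1 on array 1 (mean 0.67, adjusted p = 0.00253). These 6 were called higher out of 16 measured members of the receptor, G protein and MAP kinase list, while 4 were lower: STE4 at −0.27 ± 0.0738, CDC42 at −0.38 ± 0.232, BEM1 at −0.25 ± 0.115 and AKR1 at −0.45 ± 0.143. The list's median was 0.03 beside 0.00 for all ORFs tested, with members called on both sides of 0.

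All 4 measured genes of the list of mating transcription factors were higher. Besides KAR4 they were TEC1, the partner of Ste12 in filamentous growth, at 1.25, 1.48, 1.27 and 1.33, DIG2 at 0.75, 0.65, 0.95 and 1.10 and STE12 at 0.73, 0.40, 0.72 and 0.65. STE12 was thus 1.54-fold higher and its repressor DIG2 1.82-fold. Among 8 measured members of the list of negative regulators 6 were higher and 1, the phosphatase PTP3 at −0.16 ± 0.067, was lower (list median 0.93). SST2, which speeds GTP hydrolysis on Gpa1, was at 1.45, 1.34, 1.67 and 1.41, 2.77-fold higher with an adjusted p of 1.76e-09. The kinase phosphatase MSG5 was at 0.27, 0.66, 0.32 and 0.31. MDG1, whose place among negative regulators was not checked, was at 0.10, 0.41, 0.34 and 0.23. The largest of these changes were those of ASG7, AFR1, BAR1 and SST2, and every array of MSG5 and MDG1 lay below every array of those 4.

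The genes that a cells alone express were higher. All 4 measured members of the a-specific list rose, with a median of 2.33: ASG7, BAR1, STE2 and STE6, the exporter of a-factor, at 1.52, 1.35, 1.52 and 1.32. The other 3 members had fewer than 2 values. Of the steps that mature the pheromone precursor, RAM1, the farnesyltransferase subunit, was at 1.06, 1.01 and 1.15 on the 3 arrays that measured it, and RAM2 at 0.26 ± 0.0608. STE23 at 0.17 ± 0.06 and STE24 at 0.23 ± 0.177 were also called higher, but neither stayed past the test without array 4 or with the 4 S. mikatae arrays alone, and STE24 not with chromosomes centred. Of the 3 measured alpha-specific genes, STE3, with which alpha cells sense a-factor, was called higher at 0.39, 0.09, 0.38 and 0.45, a mean of only 0.33. MF(ALPHA)1 had no testable value. Among 11 haploid-specific genes 6 were higher and 3 lower, the last being HO at −0.26 ± 0.0515, RDH54 at −0.43 ± 0.0616 and STE4. Of 21 genes of meiosis and sporulation 7 were higher and 2 lower, led by IME4, an RNA methyltransferase gene of meiotic entry, at 1.51, 1.32, 1.87 and 1.41. The others called higher, SPO11, HOP1, NDT80, SSP1, SPS1 and DMC1, averaged 0.16 to 0.43. NDT80 and SMK1 were not called with chromosomes centred.

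Of the genes of cell fusion and the PRM group, 12 of 15 measured members were higher, with a median of 0.54, and 2 were lower. Besides FIG1, YDR124W and PRM10, these included PRM1, which acts where the plasma membranes merge, at 3.61, 3.68, 3.23 and 3.49 (11.3-fold), and RVS161 at 2.14, 2.11, 1.95 and 2.23 (4.31-fold), whose product works with Fus2 at the fusion zone. FUS1, which drives the breakdown of the wall between partners, was at 2.13, 1.72, 2.40 and 1.73, a mean of 1.996 ± 0.329 (SD, n = 4; 3.99-fold, adjusted p = 1.68e-08), and FUS2 at 1.23, 1.17, 1.39 and 0.55. PRM6, a potassium channel, was at 0.97, 0.49, 0.25 and 0.46, and CHS5, needed to bring Fus1 to the surface, at 0.75, 0.30, 0.40 and 0.48. ECM18 was called at 0.48, 0.27, 0.09 and 0.27, but not without array 1, array 2 or array 4 and not with chromosomes centred. RVS167 averaged 0.20 ± 0.21. The formin BNI1 at −0.63 ± 0.132 and PRM7 at −0.36 ± 0.128 were the 2 lower members.

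Nuclear fusion genes were called on both sides of 0. KAR3, the kinesin that draws the nuclei together, was at 1.70, 1.52 and 1.43 on its 3 arrays, and SEC66 at 0.63, 0.65, 0.63 and 0.73. The chaperone JEM1 was at −1.22, −0.79, −1.09 and −0.91 and the microtubule binding BIK1 at −0.50, −0.26, −0.55 and −0.31. With KAR4 and CIN4, 4 of 12 measured members were higher (33.3%) and 2 lower (16.7%), with a median of 0.06. Over all ORFs tested 23.3% were higher and 24.7% lower. CIN4, at 0.21, 0.76, 0.07 and 0.16, was not called without array 1 or array 2. Of the adhesins only 3 of 9 had values on at least 2 arrays, and none was called: AGA1, the anchor of a-agglutinin, was at 0.58, −0.12, −0.18 and 0.39 (adjusted p = 0.352), with arrays on both sides of 0. AGA2 and FIG2 had fewer than 2 values.

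Polarity genes were called lower about as often as all ORFs tested (24.7%). Of 24 measured members 2 were higher (beside 23.3%), the GTPase RHO1 at 0.44 ± 0.0997 and KEL1 at 0.28 ± 0.283, and 6 were lower, among them CDC42, BNI1, BEM1 and the bud-site GTPase RSR1 at −0.22 ± 0.174. KEL1 was high on array 2 alone (0.20, 0.69, 0.12 and 0.09) and was not called without array 1 or array 2 or with chromosomes centred. Among 14 genes of the exocyst and the membrane fusion machinery 3 were higher (21.4%) and 4 lower (28.6%), near the shares of all ORFs tested. SEC5 at 0.85, 0.75, 0.79 and 0.02 and the t-SNARE SSO2 at −0.72, −1.13, −0.70 and −0.79 were the farthest. SNC1 and SNC2 were not called with chromosomes centred. Of 16 septin and cytokinesis genes 2 were lower, HOF1 at −0.43 ± 0.149 and CHS2 at −0.38 ± 0.189, and none was higher, which became 4 and 3 with chromosomes centred. Of 15 calcium genes 5 were higher (33.3%), FIG1 among them, and 3 lower (20%), shares not far from those of all ORFs tested. Calmodulin, CMD1, was at 0.67, 0.88, 0.53 and 0.72 and the calcineurin regulator RCN2 at 0.70, 0.50, 0.94 and 0.47, against −0.70, −0.87, −0.44 and −1.15 for CRZ1, the transcription factor that calcineurin activates.

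Wall genes changed in both directions. CHS1, a chitin synthase of wall repair, was at 2.24, 1.40, 1.93 and 1.44 (3.37-fold), GFA1, the first enzyme of the chitin precursor route, at 1.33, 0.93, 1.10 and 1.39, and the glucan assembly gene KRE9 at 0.86, 0.73, 0.70 and 0.96. They were among 7 of 21 glucan and chitin synthesis genes called higher (33.3%), with 4 lower (19%). Over all ORFs tested 23.3% were higher and 24.7% lower. The wall mannoprotein CWP1 was at 0.98, 1.08, 0.98 and 1.17, the aspartyl protease YPS1 at 0.86, 0.58, 0.67 and 0.91, and SLT2, the kinase of wall integrity, at 0.49 ± 0.0691. Genes that remodel glucan and part daughter from mother were lower in 6 of 17 cases (35.3%) and higher in 4 (23.5%). The lowest was UTR2, a transglycosylase of chitin and glucan, at −1.42, −1.63, −1.41 and −1.50 (2.81-fold lower), with SCW4 at −0.92, −1.27, −1.08 and −0.75 and SUN4 at −0.83, −1.004, −1.03 and −0.97. AMN1, which sets daughter-specific exit from mitosis, averaged 0.84 ± 0.167 and UTH1 0.71 ± 0.174, both above 0 on every array. CHS1, GFA1 and KRE9 thus rose while UTR2, SCW4 and SUN4 fell, but both lists also held calls the other way. The 4 synthesis genes called lower were CHS2, KRE1, SMI1 and KRE5, with means of −0.38 to −0.25. The 4 remodelling genes called higher were AMN1, UTH1, SCW11 at 0.53 ± 0.167 and BGL2 at 0.32 ± 0.239. MNN2, which starts the side branches of wall mannan, was at −1.60, −2.22, −1.73 and −1.66 (3.49-fold lower). Of 29 mannosyltransferase and mannan genes 8 were lower (27.6%, near the 24.7% of all ORFs tested) and 1 higher. With chromosomes centred these counts were 13 and 0.

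**Figure D3:**
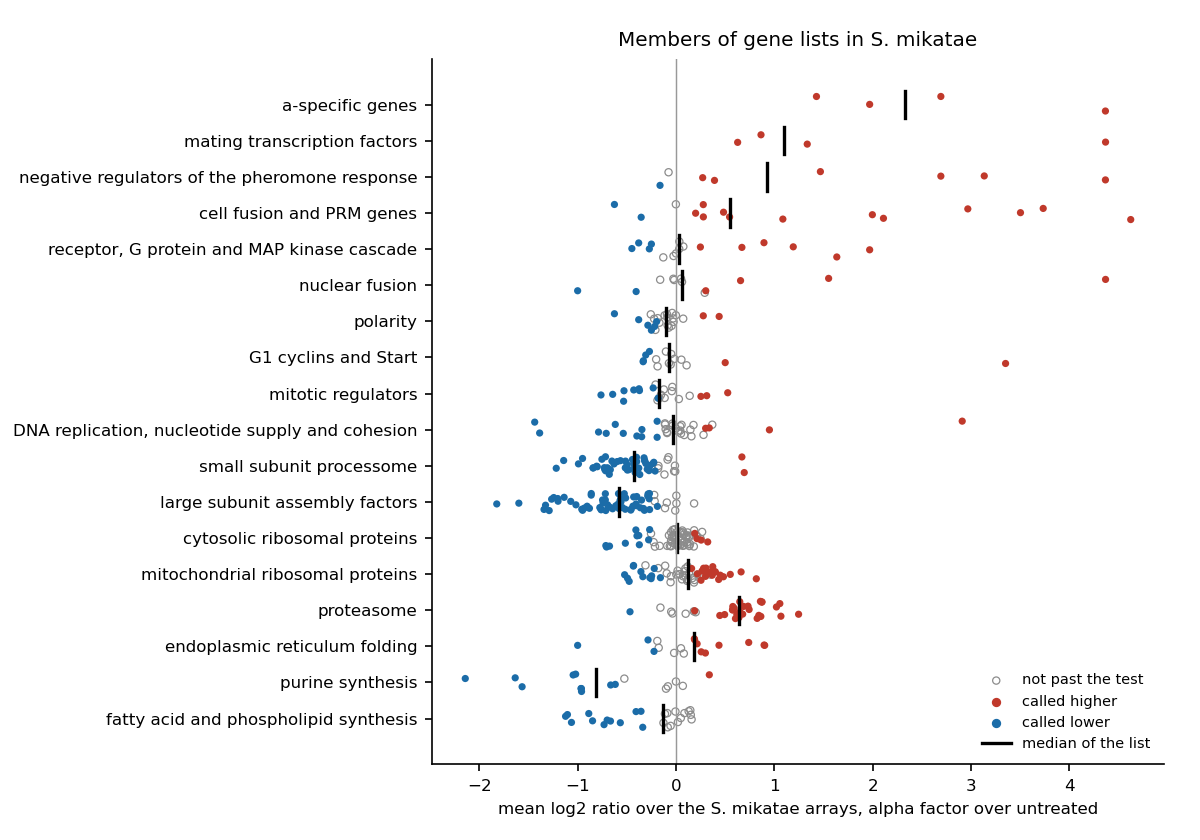
Mean log2 ratio over the S. mikatae arrays (x axis, alpha factor over untreated) for every tested member of 18 gene lists (rows); filled points passed the test, red above 0 and blue below it, open points did not, and black bars are list medians. The a-specific genes have a median of 2.33 and the proteasome 0.64, against −0.58 for large subunit assembly factors and −0.81 for purine synthesis.

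Most genes of the dividing cell that changed were lower. HHT1, a histone H3 gene with a near-identical copy elsewhere in the genome, was at −1.78, −1.70, −1.83 and −1.76 (3.4-fold lower, adjusted p = 5.28e-09). The histone H2B gene HTB1 was at −0.75, −0.79, −1.05 and −0.94 and the H2A variant HTZ1 at −1.19, −1.48, −1.08 and −1.14. The centromeric histone CSE4 was called higher at 0.33, 1.38, 0.13 and 0.31, and not without array 2. RNR1, the large subunit of ribonucleotide reductase, was at −1.25, −1.38, −1.51 and −1.41 (2.62-fold lower), the GINS subunit PSF2 at −1.46, −1.63, −1.16 and −1.50, thymidylate synthase CDC21 at −0.94, −0.43, −0.86 and −0.61 and the cohesin subunit MCD1 at −0.98, −0.73, −1.01 and −0.44. DCD1 and POL32, a subunit of DNA polymerase delta at 0.91, 0.93 and 1.01 on 3 arrays, went the other way. In the whole list of replication and nucleotide supply 11 of 34 were lower and 4 higher, including the small reductase subunits RNR2 at 0.34 ± 0.245 and RNR4 at 0.30 ± 0.125, and the median was −0.04. Of 17 MCM and origin licensing genes 4 were lower and 1 higher, a share of lower calls near the 24.7% of all ORFs tested, with MCM4 at −0.32, −1.06, −0.39 and −0.99.

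Start and mitosis differed in size. CLN3, the cyclin upstream of Start, was at 0.63, 0.25, 0.43 and 0.68, while CLN1 averaged −0.19 ± 0.054 and was not called (adjusted p = 0.106). CLN2 had no testable value. SWI4, the DNA-binding subunit of SBF, was at −0.33, −0.42, −0.30 and −0.29 and the S phase cyclin CLB5 at −0.23, −0.49, −0.18 and −0.34, called only with array 2 and not with chromosomes centred. In this list of 15 genes, 2 were higher, CLN3 and PCL2, and 4 lower (26.7%, near the 24.7% of all ORFs tested). Of 22 mitotic regulators 9 were lower and 3 higher. CLB2, the main mitotic cyclin, was at −0.59, −0.70, −0.62 and −0.67, and NDD1, which activates the CLB2 cluster, at −0.72, −0.85, −0.18 and −1.30. ESP1, separase, was called higher at 0.16, 0.999, 0.50 and 0.44 and not without array 2. PDS1, its inhibitor, averaged −0.53 ± 0.124 over 3 arrays and was not called without array 3. CDC20 averaged 0.25 ± 0.167.

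Ribosome assembly was the broadest fall. Of 66 measured large subunit assembly factors 58 were lower and none higher (87.9% lower, beside 24.7% of all ORFs tested), with a median of −0.58 that lay between −0.57 and −0.66 on the single arrays. Of 55 genes of the small subunit processome 45 were lower, and UTP7 at 0.66, 0.98, 0.61 and 0.44 and UTP20 at 1.05, 0.53 and 0.50 were higher. NIP7, a late large subunit factor, was at −1.70, −1.74, −1.83 and −2.03 (3.54-fold lower, adjusted p = 2.37e-09) and ERB1, which works with Nop7 and Ytm1, at −1.42, −1.85, −1.52 and −1.60 (3.03-fold). NOP12 was at −1.24, −1.59, −1.09 and −1.40, the helicase DBP2 at −1.28, −1.56, −1.45 and −1.09, NOP15 at −1.17, −1.40, −1.20 and −1.39 and the giant ATPase MDN1 at −1.38, −1.14, −1.11 and −1.43. RPF2 was at −0.22, −0.28, −0.36 and −2.76, so its mean of −0.90 rests on array 4. RNA polymerase I and III each had 7 of 15 measured members lower and none higher, with RPA49 at −0.71, −0.79, −1.02 and −0.82 and RPC25 at −0.76, −0.87, −0.89 and −0.78. The ribosomal proteins themselves moved little: 10 of 66 were lower and 4 higher, with a median of 0.01, and another 71 had fewer than 2 values or no ORF in the table. Many ribosomal protein genes come in near-identical pairs that a cDNA probe may not separate.

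The proteasome rose as a group. Of 34 measured members 27 were higher (79.4%, beside 23.3% of all ORFs tested) and 1, RPN13 at −0.35, −0.80, −0.24 and −0.48, was lower. The list median was 0.64, and on the single arrays it lay between 0.58 and 0.67. RPN6, a lid subunit needed to assemble the proteasome, was at 1.01, 1.63, 1.13 and 1.21, PRE4 at 0.96, 1.31, 0.85 and 1.15, the ubiquitin receptor RPN10 at 1.01, 1.05, 0.91 and 1.25 and PRE3, a catalytic subunit, at 0.95, 1.03, 1.04 and 1.05. Subunits of the core (PRE3, PRE4), the base (RPT2 at 0.87 ± 0.113) and the lid (RPN6) were among the higher members, as was the assembly factor UMP1 at 0.93, 0.53, 0.90 and 1.11. The 6 members not called were PRE2, PRE5, PUP1, RPN9, RPT1 and RPN4, the last at −0.16 ± 0.104. Cytosolic chaperones went up in 9 of 20 cases and down in 4. STI1, which bridges Hsp70 and Hsp90, was at 1.15, 1.40, 1.30 and 1.25, the disaggregase HSP104 at 0.82, 1.45, 0.95 and 1.03, and the Hsp40 SIS1 at 0.87, 0.89, 0.77 and 1.26. In the endoplasmic reticulum 9 of 17 folding genes were higher and 3 lower, with SCJ1 at 0.93, 0.81, 0.75 and 1.11, LHS1 at 0.83, 0.68, 0.82 and 1.25 and the oxidase ERO1 at 0.81, 0.55, 0.78 and 0.82. Of 19 autophagy and vacuolar protease genes 9 were higher and 1, ATG11 at −0.69 ± 0.264, was lower. The vacuolar protease PRB1 was far above the rest at 1.45, 1.24, 1.46 and 1.75.

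Genes of purine and one-carbon metabolism were among the lowest, and there the arrays split. ADE17, the last enzyme of the purine route, was at −3.01, −1.19, −1.21 and −3.16, and SHM2, which feeds one-carbon units from serine, at −2.86, −1.45, −1.30 and −2.73. ADE5,7 was at −2.50, −0.93, −0.97 and −2.14, ADE12, the first step to AMP, at −2.45, −0.70, −0.89 and −2.23, ADE13 at −1.73, −0.31, −0.40 and −1.41 and the salvage gene HPT1 at −1.56, −0.50, −0.74 and −1.38. In each of these 6 genes arrays 1 and 4 lay below arrays 2 and 3, and the same split held for ADE1 (−1.86, −0.10, −0.34 and −1.56) and the glycine cleavage gene GCV1 (−1.42, −0.25, −0.57 and −1.54). ADE1 was not called without array 1 or array 4, nor GCV1 without array 4. The median of the purine list was −0.94 and −0.85 on arrays 1 and 4, against −0.31 and −0.44 on arrays 2 and 3. Arrays of the other species also split in these genes. ADE17 was at −1.22, −1.05 and −2.97 on the S. cerevisiae arrays and −1.45, −0.23 and −2.76 on those of S. paradoxus, and SHM2 at −0.40, −0.44 and −1.85 on those of S. cerevisiae and −1.59, −0.55 and −2.999 on those of S. paradoxus. What set the arrays of 1 species apart here was not tested.

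ADE17 averaged −2.14 ± 1.09 (SD, n = 4; adjusted p = 0.000738) and SHM2 −2.09 ± 0.823 (adjusted p = 0.000302), spreads well over the median SD of 0.148. Of 16 measured purine genes 10 were lower and 1, ADE16 at 0.47, 0.08, 0.39 and 0.42, was higher. ADE16 and ADE17 encode isozymes with similar sequence. Other purine genes differed: AAH1, adenine deaminase, was at −0.99, −0.97, −0.85 and −1.28, while in APT1 at −0.69, −1.20, −1.13 and −0.84 and GUA1 at −0.40, −0.87, −0.83 and −0.37 arrays 1 and 4 lay above arrays 2 and 3. APT1 and APT2 thus lay on opposite sides of 0 on every array. Of 20 one-carbon and glycine genes 8 were lower and 2 higher, with the methylenetetrahydrofolate dehydrogenase MTD1 at −1.55, −0.75, −0.88 and −1.85. The histidine genes HIS4 (−0.97, −0.10, −0.21 and −1.02) and HIS1 (−1.07, −0.03, −0.35 and −0.90), whose route shares intermediates with purines, were lower mainly on arrays 1 and 4. HIS4 was not called without array 1 or array 4, and HIS1 not without array 1, array 3 or array 4.

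**Figure D4:**
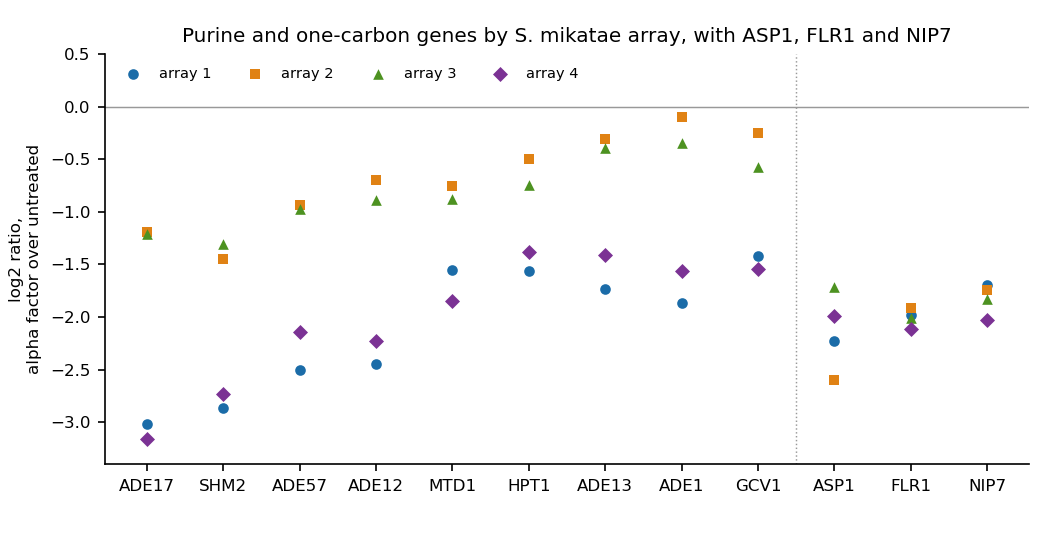
Log2 ratio of alpha factor over untreated cells (y axis) on each of the 4 S. mikatae arrays (coloured markers) for 9 purine and one-carbon genes, picked after their values were seen, and for ASP1, FLR1 and NIP7 right of the dotted line. Arrays 1 and 4 lie below arrays 2 and 3 in all 9 purine and one-carbon genes, and ADE17 spans −3.16 to −1.19, while FLR1 spans −2.11 to −1.92.

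Most other genes among the lowest lay well below 0 on every array, with unequal spreads. FLR1, a drug exporter, was at −1.98, −1.92, −2.01 and −2.11 (4.02-fold lower, adjusted p = 1.18e-09), ASP1, the cytosolic asparaginase, at −2.22, −2.60, −1.72 and −1.99, and the water channel gene AQY1 at −2.42, −1.62, −1.87 and −1.82. ERG3, the sterol C-5 desaturase, was at −1.73, −2.31, −2.05 and −1.73. YBL113C, an ORF of the repeated subtelomeric Y' elements, was at −1.98, −1.999, −1.92 and −2.02, the only 1 of 29 such ORFs in the table with values on at least 2 arrays. The hexose transporters HXT1 (−1.69, −1.87, −1.95 and −1.61), HXT5 (−1.63, −2.04, −1.33 and −2.08) and HXT4 (−1.55, −1.66, −1.74 and −1.50) were 3.45-fold, 3.41-fold and 3.06-fold lower. Members of this family are alike in sequence, so their probes may share signal. Of 14 hexose transport and sensing genes 6 were lower and 1 higher, with HXT10 and STD1 lost in other settings. NCE102, a membrane domain protein, was at −1.37 ± 0.0963, the transport complex gene TRS23 at −1.56 ± 0.281, and the lipid droplet gene YFT2 at −1.48 ± 0.156. YDR157W ranged widely at −1.30, −1.42, −0.46 and −2.34.

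Fatty acid and phospholipid genes were lower where called. Of 25 fatty acid and phospholipid genes 12 were lower and none higher (48% lower, beside 24.7%), with a median of −0.13. OLE1, the fatty acid desaturase, was at −0.93, −1.52, −1.09 and −0.96, the inositol transporter ITR1 at −1.06, −1.32, −0.86 and −1.18, the elongase ELO3 at −0.90, −1.59, −0.88 and −0.88, ACC1 at −0.39, −1.03, −0.76 and −0.75 and FAS2 at −0.55, −0.82, −0.59 and −0.70. Of 26 members of the ergosterol list 8 were lower (30.8%) and 6 higher (23.1%), near the 24.7% and 23.3% of all ORFs tested. ERG11 was at −0.55, −0.68, −0.91 and −0.10 and MVD1 at −0.58, −0.42, −0.72 and −0.37, while ERG20 was at 0.71, 0.63, 0.50 and 0.67 and ERG9 at 0.52, 0.71, 0.36 and 0.64. ERG11 and MVD1 thus lay below 0 and ERG20 and ERG9 above it on every array, and UPC2 and ERG3 were the extremes of the list.

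In sulfur metabolism 11 of 22 measured genes were lower and 4 higher. Methionine synthase MET6 was at −1.56, −1.31, −1.08 and −1.25 and the reductase gene MET16 at −0.68, −0.79, −0.65 and −0.57. MET14 was at −0.94, 0.04, −1.03 and −1.03, near 0 on array 2, and was not called without array 3 or array 4. With chromosomes centred 7 were lower and 1 higher. Of 49 amino acid synthesis genes 12 were higher (24.5%) and 6 lower (12.2%), beside 23.3% and 24.7% of all ORFs tested. Their means all lay within 1 log2 unit of 0, with LYS9 lowest at −1.23, −0.68, −1.13 and −0.76 and PRO1 highest at 0.48, 0.52, 0.45 and 0.69. Of 30 nitrogen source genes 9 were higher and 5 lower. Glutamine synthetase GLN1 was at −0.91, −1.08, −0.98 and −0.95 and the GABA transaminase UGA1 at 0.68, 0.66, 0.91 and 0.91. Of 30 iron and copper genes 8 were lower (26.7%, near the 24.7% of all ORFs tested) and 2 higher. The copper transporter CTR1 was farthest at −1.36, −1.18, −1.10 and −1.60. The phosphatase PHO11, which has near-identical copies, was at −0.85, −1.32, −0.88 and −1.08, and 7 of 20 phosphate genes were lower and 3 higher. The phosphate transporter PHO84 was at 0.07, −0.25, −0.05 and 0.03 and not called (adjusted p = 0.53).

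Mitochondrial genes changed in both directions. Of 58 mitochondrial ribosomal proteins 21 were higher and 12 lower (beside 23.3% and 24.7% of all ORFs tested), with a median of 0.12 that lies within the range of the chromosome shifts, and MRPL36 was farthest at 0.74, 0.83, 0.75 and 0.94. Of 35 respiratory chain and ATP synthase genes 14 were higher and 6 lower (median 0.14). CYC1, cytochrome c, was at 0.41, 0.91, 0.38 and 0.67 and the cytochrome bc1 subunit QCR8 at 0.45, 0.68, 0.49 and 0.50, against −0.76, −1.40, −0.92 and −0.68 for the external NADH dehydrogenase NDE1 and −0.81, −1.27, −0.52 and −0.96 for COX12. COX5B was at −1.14, −0.53, 0.28 and −1.35, and its call ended without array 1 or array 4. Of 13 TCA cycle genes 6 were higher and 3 lower (median 0.08, and −0.11 on array 2), with IDH2 at 0.34, 0.82, 0.84 and 0.66 and the succinyl-CoA ligase subunit LSC2 at −0.80, −0.50, −0.51 and −0.50. Glycolysis had 5 of 16 higher and 1, ADH3 at −0.68 ± 0.283, lower. PGI1 and ADH4 ended under several settings.

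General stress genes did not move together, with 6 of 26 higher and 3 lower and a median of −0.01. The higher share of 23.1% was near the 23.3% of all ORFs tested. The aldose reductase GRE3 was at 0.81, 0.70, 1.09 and 1.30, and GPD1, the glycerol gene of osmotic stress, averaged 0.78 ± 0.201; both were called. Peroxide and thiol defence had 9 of 23 higher and 4 lower, with GLR1 at 0.66, 0.72, 0.63 and 1.19, SOD2 at 0.70, 0.83, 0.59 and 0.84 and thioredoxin TRX1 at −0.41, −0.87, −0.74 and −0.73. Of 14 drug transporters 5 were lower and 2 higher, PDR12 and FLR1 lying at the ends. Among 12 reference genes ACT1, actin, was at 0.23, 0.12, 0.12 and 0.10 and not called (adjusted p = 0.104). The tubulin genes TUB1 at −0.33 ± 0.121 and TUB3 at −0.41 ± 0.129 were lower, and PDA1, at 0.40 ± 0.0924 over 3 arrays, was higher.

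The S. mikatae ratio was then compared with the mean of the S. cerevisiae and S. paradoxus ratios, for 4084 ORFs with at least 2 values in each species. Untreated cells were those of the same species throughout, so no sample was shared. All alpha factor arrays of a species came from the same strain, so strain and species cannot be told apart in these differences. In limma 451 ORFs (11%) passed the test of the difference, 233 higher in S. mikatae (5.71%) and 218 lower (5.34%). Of 3522 ORFs measured on all 10 alpha factor arrays, 253 (7.18%) were called with no overlap between the S. mikatae arrays and the other 6. How far probe mismatch in S. mikatae RNA enters these differences was not tested.

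The ORFs that stood highest against the other species were mostly from outside the mating response. SKG6 was at 2.27, 3.03, 2.45 and 2.16 in S. mikatae, against 0.49, −0.07 and 0.36 in S. cerevisiae and −0.24, −0.34 and −0.30 in S. paradoxus, a difference of 2.49 (adjusted p = 1.31e-07). DCD1 averaged 2.91 in S. mikatae, 0.52 in S. cerevisiae and 0.37 in S. paradoxus. PDR12 averaged 2.32 in S. mikatae, 0.18 in S. cerevisiae and −0.07 in S. paradoxus. The arrays of the other species lay closer to 0 than every S. mikatae array in all 3 of these genes, which were picked for having no overlap. APT2 averaged 2.34 in S. mikatae, 0.05 in S. cerevisiae and 0.21 in S. paradoxus. For KAE1 the means were 2.19 in S. mikatae, 0.00 in S. cerevisiae and 0.49 in S. paradoxus, a difference of 1.95 (adjusted p = 9.23e-09), and for TFA1 they were 2.10 in S. mikatae, 0.25 in S. cerevisiae and 0.34 in S. paradoxus. LAM1 differed by 2.09, PRP8 by 2.03 and the Ty1 ORF YAR009C by 2.13. SKG6, DCD1, PDR12, APT2, LAM1, PRP8 and TFA1 were highest on array 2, which stood apart from the other S. mikatae arrays. All ORFs named so far in this paragraph were called in S. mikatae itself. PHO84 was not: it was at 0.07, −0.25, −0.05 and 0.03 in S. mikatae, against −1.07, −1.27 and −1.13 in S. cerevisiae and −2.19, −2.01 and −2.03 in S. paradoxus, so its difference of 1.56 came from lower ratios in both other species.

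Among the 10 that stood lowest were AGA1, ECM18, PRM6, FUS2 and FAR1, which are in lists of mating genes. The share of such genes among all ORFs tested was not counted, and the lists were written with earlier results of these data known. AGA1 was at 0.58, −0.12, −0.18 and 0.39 in S. mikatae, against 3.25, 3.80 and 3.97 in S. cerevisiae and 3.74, 4.06 and 3.65 in S. paradoxus, a difference of −3.58 (adjusted p = 1.53e-07). The S. mikatae arrays lay around 0 and the other 6 far above it. ECM18 was at 0.48, 0.27, 0.09 and 0.27 in S. mikatae, against 2.47, 2.25 and 2.11 in S. cerevisiae and 2.34, 2.64 and 2.48 in S. paradoxus. PRM6 averaged 0.54 in S. mikatae, 1.75 in S. cerevisiae and 1.71 in S. paradoxus. FUS2 averaged 1.09 in S. mikatae, 2.05 in S. cerevisiae and 2.23 in S. paradoxus, and FAR1 0.67 in S. mikatae, 1.86 in S. cerevisiae and 1.59 in S. paradoxus. These 4 genes were called higher in S. mikatae, by less than in the other species, but the call of ECM18 was lost in several other settings. The other 5 were lower in S. mikatae: UTR2, NCE102, MVD1, LYS9 and LSC2. UTR2 averaged −1.49 in S. mikatae, −0.40 in S. cerevisiae and −0.21 in S. paradoxus, and NCE102 −1.37 in S. mikatae, −0.31 in S. cerevisiae and −0.22 in S. paradoxus. For LYS9 the means were −0.95 in S. mikatae, −0.25 in S. cerevisiae and 0.39 in S. paradoxus. MVD1 averaged −0.52 in S. mikatae, 0.37 in S. cerevisiae and 0.72 in S. paradoxus, and LSC2 −0.58 in S. mikatae, 0.29 in S. cerevisiae and 0.56 in S. paradoxus, so in both genes the other species lay on the other side of 0.

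**Figure D5:**
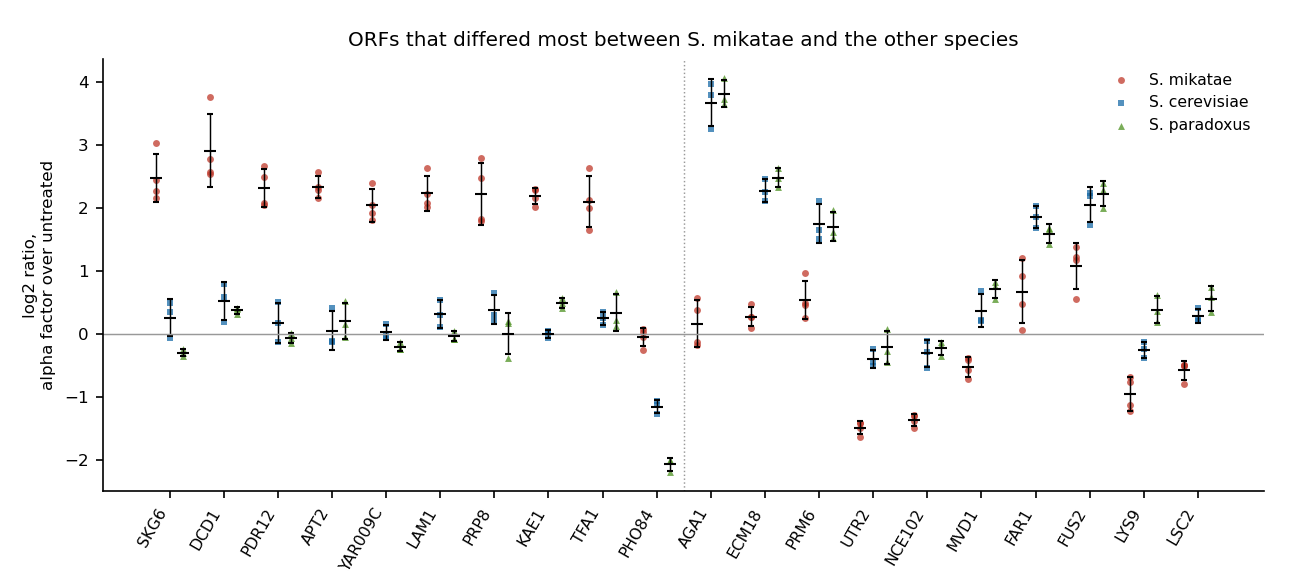
Log2 ratio of alpha factor over untreated cells (y axis) for the 10 ORFs with the highest (left of the dotted line) and the 10 with the lowest difference between S. mikatae and the other 2 species. Points are arrays, 4 for S. mikatae (red), 3 for S. cerevisiae (blue) and 3 for S. paradoxus (green), and black bars are the mean with its SD; SKG6 averages 2.48 in S. mikatae, 0.26 in S. cerevisiae and −0.29 in S. paradoxus, and AGA1 0.17 in S. mikatae, 3.67 in S. cerevisiae and 3.82 in S. paradoxus.

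The mating genes differed from the other species in both directions. Against their mean, S. mikatae was higher in KSS1 (difference 1.25), PRM10 (1.12), CHS1 (0.98), ASG7 (0.90), AFR1 (0.76), KAR4 (0.66), STE2 (0.51) and STE6 (0.44). It was lower in PRM1 (−0.62), FUS3 (−0.56) and GPA1 (−0.39), besides AGA1, FUS2, FAR1 and PRM6. KSS1 averaged 1.63 in S. mikatae, 0.73 in S. cerevisiae and 0.03 in S. paradoxus. FIG1 averaged 4.62 in S. mikatae, 4.97 in S. cerevisiae and 5.02 in S. paradoxus and missed the threshold (adjusted p = 0.0663), and FUS1, BAR1, SST2, STE12 and YDR124W were not called either. Against that mean, 3 of 4 a-specific genes were higher, and of 15 fusion genes 2 were higher and 4 lower, beside 5.71% and 5.34% of all ORFs tested. The median of the a-specific list was 2.33 in S. mikatae, 1.70 in S. cerevisiae and 2.48 in S. paradoxus, so that of S. paradoxus was the highest. The median of the fusion list was 0.54 in S. mikatae, against 1.68 in S. cerevisiae and 1.71 in S. paradoxus.

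The mean of the other species can hide a split between them. Against S. cerevisiae alone 517 ORFs were called and against S. paradoxus alone 561. FUS3 averaged 1.19 in S. mikatae, 2.06 in S. cerevisiae and 1.45 in S. paradoxus. CHS1 averaged 1.75 in S. mikatae, 1.36 in S. cerevisiae and 0.19 in S. paradoxus, so its distance was greatest from S. paradoxus. RAM1 averaged 1.07 in S. mikatae, 0.07 in S. cerevisiae and 1.32 in S. paradoxus, the low value being that of S. cerevisiae. MET6 averaged −1.30 in S. mikatae, 0.34 in S. cerevisiae and −1.38 in S. paradoxus, with S. cerevisiae alone above 0. The S. cerevisiae strain lacks MET17, and whether this bears on MET6 was not tested.

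Outside mating, genes that part daughter cells and remodel glucan were lower than in the other species in 6 of 16 cases and higher in none (5.34% of all ORFs tested were lower). SUN4 averaged −0.96 in S. mikatae, −0.07 in S. cerevisiae and 0.10 in S. paradoxus. SCW4 averaged −1.002 in S. mikatae, −0.17 in S. cerevisiae and −0.08 in S. paradoxus, and SCW11 0.53 in S. mikatae, 1.97 in S. cerevisiae and −0.03 in S. paradoxus. SCW11 was thus low only relative to S. cerevisiae, while SUN4 and SCW4 were below both. In the proteasome 7 of 32 were higher and 1 was lower, beside 5.71% higher over all ORFs. Over these 32 its median was 0.63 in S. mikatae, 0.23 in S. cerevisiae and 0.59 in S. paradoxus, so it lay close to that of S. paradoxus. ERG3 averaged −1.95 in S. mikatae, −1.21 in S. cerevisiae and −1.02 in S. paradoxus, a difference of −0.84. The H2B gene HTB1 averaged −0.88 in S. mikatae, −0.19 in S. cerevisiae and −0.28 in S. paradoxus, and NOP12 −1.33 in S. mikatae, −0.36 in S. cerevisiae and −0.76 in S. paradoxus. The S. mikatae means of these 3 genes were below those of both other species. OLE1 was less low in S. mikatae, at −1.12, than in S. cerevisiae at −2.42 and in S. paradoxus at −1.39, while the elongase ELO1 averaged −0.70 in S. mikatae, −0.94 in S. cerevisiae and 2.30 in S. paradoxus, with S. paradoxus alone above 0.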

How the data were processed

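Two-colour arrays of S. cerevisiae cDNA probes compared alpha factor treated with untreated cells of 1 species per array. The authors deposited 1 value per ORF and array, read here as log2 ratios of channel 1 (treated) over channel 2 (untreated). The sources used here do not give the log base, centring, direction, background correction, normalization or how missing values arose. Arrays were centred on their medians (−0.00392 to 0.00805 for S. mikatae) and fitted in limma 3.58.1 under R 4.3.3 (with statmod 1.5.0 for the block), 1 mean for each of 4 groups over 13 arrays and 9 residual degrees of freedom for complete ORFs. S. mikatae means were tested against 0, and against the mean of S. cerevisiae and S. paradoxus, for ORFs with at least 2 values per group, with Benjamini-Hochberg adjustment over all ORFs tested. The number of arrays limits the precision, and the p-values measure the spread between arrays. Names came from the RefSeq table of S. cerevisiae (assembly R64), which matched 5651 ORFs, 43 of them with a dash added, and 481 kept their own name.

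The ORFs named were the 25 highest and 25 lowest called ones with 1 sign on all 4 arrays, the 10 highest and 10 lowest differences without overlap, up to 6 called members of each list and a fixed set of mating, cycle and reference genes. The 58 lists were written from general knowledge. Members and lists were chosen with earlier results of these data known. Some called members beyond the rule, ORFs of at least 2-fold in the closing section, the genes of the purine plot and the stretch of chromosome VIII were picked after their values were seen. Same-numbered arrays of different groups correlated at −0.261 to 0.334 in their deviations from the group means, and others at −0.336 to 0.378, so repeat numbers were not taken to pair them. Alternatives were no centring, scaling, quantile normalization, complete ORFs, array weights, robust variances, a replicate block, fewer groups in the fit, fold thresholds, leaving out each array and centring each chromosome. The fit was tested on simulated data. Promoter motifs were not analysed here. Plots were drawn in Python 3.11.15 with matplotlib 3.10.9.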

Additional observations from a re-analysis of the deposited data

Results flagged for a closer look

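Of 71 genes and 52 list medians examined for an array far from the other 3 S. mikatae arrays, 7 had a gap over range above Dixon's 95% critical value for 4 values, and chance alone flags about 1 in 20. Array 2 was far from the others for PEX34 (1.40, against 2.18 to 2.32) and for MSG5 (0.66, against 0.27 to 0.32), and array 1 for LSC2 (−0.80) and ACT1 (0.23). Array 3 was far in 3 list medians: the negative regulators at 1.67, where it lacks a value for 1 member that the other arrays hold, G1 cyclins and Start at −0.033, and ammonium, glutamine and nitrogen source use at 0.162. 

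Picked for called differences with no overlap of arrays were 20 ORFs described above. In them the response of the S. mikatae strain differed from the mean of the S. cerevisiae and S. paradoxus strains. It was higher by 2.49 in SKG6, 2.46 in DCD1, 2.27 in PDR12, 2.20 in APT2, 2.13 in YAR009C, 2.09 in LAM1, 2.03 in PRP8, 1.95 in KAE1, 1.81 in TFA1 and 1.56 in PHO84. The difference was −3.58 for AGA1, −2.10 for ECM18, −1.19 for PRM6, −1.18 for UTR2, −1.10 for NCE102, −1.07 for MVD1, −1.05 for FAR1, −1.05 for FUS2, −1.02 for LYS9 and −1.0002 for LSC2.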

How the results depend on the processing

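Calling only ORFs of at least 2-fold gave 138 (66 higher, 72 lower), testing against 1.5-fold gave 174 (86 higher, 88 lower), and a difference of at least 1 log2 unit left 35 (21 higher, 14 lower). The other settings gave 1945 to 2178 calls for the response, against 2095, and 422 to 654 for the difference, against 451, array weights giving the most in both. Leaving out each array in turn gave 1762 (without array 2) to 1861 response calls and 337 to 423 difference calls. No response call was reversed without any of the 4 S. mikatae arrays, and reversals among all difference calls were not counted. With the replicate number as a block 2088 and 424 were called (consensus correlation −0.0545). Centring each chromosome, chosen after seeing the data, gave 2014 and 453. Of 4788 comparisons of named genes with the response, 4462 kept direction and side of the threshold, 324 lost the call, 2 gained one and 0 reversed. All 440 for the 20 difference ORFs kept both. Named ORFs were largely picked for extreme values, the 20 also for no overlap of arrays, so these counts say little about other ORFs. Among gene lists, 36 of 870 medians moved beyond the spread between arrays and 277 of 1740 counts by over 1.5 times. The test of promoter motifs was not run. Signal over background was not used, and ORFs with no S. mikatae value were not tested.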

Other observations

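Other ORFs of at least 2-fold fell outside every gene list. UBP15, a ubiquitin protease, was at 1.71, 1.77, 1.58 and 1.77 on arrays 1 to 4, the lactate dehydrogenase gene DLD3 at 1.55, 1.57, 1.51 and 1.74, the acetaldehyde dehydrogenase ALD6 at 1.42, 1.15, 1.19 and 1.79 and the carbonic anhydrase NCE103 at 1.26, 1.25, 1.25 and 1.62. UFD1, a partner of Cdc48 in protein degradation, was at 0.84, 1.13 and 1.32 on 3 arrays. Lower were the malic enzyme MAE1 at −1.63, −1.18, −1.34 and −1.35, the rRNA methyltransferase RCM1 at −1.30, −1.63, −1.25 and −1.28, the nucleolar protein NSR1 at −1.09, −1.30, −1.34 and −0.97, the histone chaperone ASF1 at −1.19, −0.98, −0.84 and −1.67, the replication pausing factor TOF1 at −0.81, −1.07, −1.23 and −1.13 and the membrane proteins MRH1 at −1.35, −1.13, −1.33 and −0.92 and YRO2 at −1.24, −0.74, −1.40 and −1.27. All of these lay on 1 side of 0 on every array that measured them.

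A stretch of the right arm of chromosome VIII held many of the ORFs that were high in S. mikatae. From YHR125W to CDC23 (YHR166C), limits chosen after the values were seen, 20 of 31 tested ORFs were higher and none lower, 7 were at least 2-fold higher, and the median was 0.39. The whole arm had 74 of 181 higher and 23 lower, with a median of 0.13. Besides YHR125W, DCD1, SKG6, LAM1 and PRP8, the stretch holds RTT107 at 1.33, 1.75, 1.21 and 0.85 and the anaphase-promoting complex gene CDC23 at 1.25, 1.94, 1.41 and 1.24, each next to 1 of the 25 highest. The order is that of the S. cerevisiae genome, and whether S. mikatae keeps it was not tested.

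Neighbours of the extreme ORFs, by gene order in S. cerevisiae R64, were counted once each, leaving out those that are themselves among the extremes of that side. Of 36 tested neighbours of the highest ORFs, 16 were higher and 7 lower, beside 23.3% and 24.7% of all ORFs. These shares do not account for the chromosome shifts. NDT80, PEX28, RTT107, DNA2 and CDC23, among the 16, lie on chromosome VIII, where 40.85% of ORFs tested were called higher. SAT4 and PRD1 lie on chromosome III and SEN34 on chromosome I, where 42.24% and 41.54% were called higher. ECM18 and NDT80, also among the 16, were not called with chromosomes centred. The part of the chromosomes in this count was not tested. FAT1, next to FIG1, was at 0.94, 1.07, 0.995 and 1.08, and TVP23, next to AFR1, at 0.93, 1.06, 0.96 and 1.24, while MAE1, next to TFA1, went the other way. Of 28 tested neighbours of the lowest ORFs, 7 were lower, a share near that of all ORFs, and 2 higher. SPT8, next to ERG3, was at −1.41, −1.08, −0.80 and −1.83, and JEM1 lies next to PSF2. HXT1 and HXT5 are neighbours and share sequence. Whether neighbouring values share signal from overlapping probes or transcripts was not tested.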
